A study of Mus musculus x Rattus norvegicus with 2 samples.

Results

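Nitric oxide and cGMP signalling was followed through 6 genes chosen by symbol: Nos3, Gucy1a1, Gucy1b1, Prkg1, Pde5a and Pde3a. All 6 had a mouse feature and 5 of the 6 had a rat feature. These made 11 of the 80802 features counted, and no rat feature carried the symbol Prkg1, so that gene was described in mouse cells alone. In a vessel wall, nitric oxide is made in endothelial cells by the synthase that Nos3 encodes and diffuses to the contractile cells that surround them. There it binds soluble guanylate cyclase, a pair of subunits encoded by Gucy1a1 and Gucy1b1, which then makes the second messenger cGMP. cGMP activates the kinase encoded by Prkg1, which lowers calcium and relaxes the cell, and it is broken down by the cGMP-specific phosphodiesterase of Pde5a, while the cAMP-degrading phosphodiesterase of Pde3a is inhibited by cGMP. In the lung around birth this route is known for the fall in vascular resistance at the first breaths.

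Cells came from the lungs of mouse-rat chimeras at E20.5 and were sequenced as a pair of 10x 3' single-cell libraries. In these chimeras C57BL/6 mouse cells had developed inside SD rat hosts. The control library came from a wild-type rat host and the mutant library from an Nkx2-1-/- rat host, a rat without the lung transcription factor Nkx2-1. The mouse cells of both libraries carried no stated mutation, so mutant and control differ in the host and in the library. Each group was 1 library, the sources used here do not say how many embryos a library held, and no difference has a replicate check. Levels are sums of unique molecular identifiers (UMIs) over the cells of a type, per 1000000 UMIs of the same species (CPM), and their 95% Poisson intervals cover counting error only. A log2 difference was taken after adding 10 CPM to both sides, and a gene was called where that difference reached 2-fold.

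The control matrix held 123047433 UMIs in 11129 barcodes and the mutant matrix 103627303 UMIs in 10918 barcodes, and 47 barcode sequences stood in both. After filtering there were 7260 control and 8498 mutant mouse cells, and 725 and 79 rat cells. Clusters carry the ending "-like" because they were named from marker RNA. None of the 6 genes entered the clustering or the naming rule. The rule was chosen with their values by subcluster seen, so the split of pericyte-like from vessel smooth muscle-like cells is not independent of them. Mouse pericyte-like cells numbered 286 and 180 (control and mutant), and 12 and 13 of the 13 listed pericyte markers reached 10 CPM in them. Vessel smooth muscle-like cells numbered 94 and 56, and airway smooth muscle-like cells 34 and 59. The airway cells carried Hhip at 1285 and 2359 CPM, against 3.24 and 11.7 CPM in the vessel cells. The same type often came from different clusters in the 2 libraries. Control pericyte-like cells lay in cluster m15 and 154 of the 180 mutant ones in m30, control airway cells in m2 and mutant ones in m22, and general capillary-like cells mostly in m11 (control) and m24 (mutant). Arterial-like cells shared cluster m9, venous-like cells m13, and most vessel smooth muscle-like cells came from m14 and m15. Endothelial-like mouse cells numbered 1624 and 1950.

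Nos3, the nitric oxide source, was an endothelial transcript in both libraries. Endothelial-like cells held 921 control and 788 mutant Nos3 UMIs, a level of 60.5 CPM (56.6 to 64.5) and 49.4 CPM (46.0 to 53.0). All other mouse cells together held 88 and 51 UMIs, or 1.16 and 0.680 CPM. The level was 52.0-fold higher in endothelial-like cells in the control library (41.7 to 65.5) and 72.7-fold higher in the mutant library (54.8 to 98.5). Nos3 was the 1 gene of the 6 called higher in endothelial-like cells, where 7.97% of 9951 control genes and 11.6% of 10449 mutant genes were called higher. Of the others, Gucy1a1, Gucy1b1 and Pde5a were called lower there in both libraries and Prkg1 in mutant, so 3 and 4 genes, against 9.48% and 13.9% of all genes. The share of endothelial-like cells with a Nos3 UMI was 28.4% and 26.7%, at median depths of 3577 and 7527 UMIs. In the other cells, which set the background, the share was 1.35% and 0.718% at median depths of 8939 and 11036 UMIs. With each cell thinned to 2000 UMIs the shares were 12.1% against 0.298% in control and 8.80% against 0.118% in mutant, which left out 527 and 600 control cells and 143 and 609 mutant cells as too shallow. The contrast between endothelial and other cells therefore held at equal depth.

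Within the endothelium, Nos3 was highest in arterial-like and venous-like cells. Arterial-like cells stood at 122 CPM (94.4 to 155) in control and 116 CPM (92.5 to 144) in mutant, and venous-like cells at 162 CPM (126 to 204) and 120 CPM (91.5 to 154). General capillary-like cells, the most numerous, stood at 57.9 CPM (53.8 to 62.2) and 46.9 CPM (43.1 to 51.0). The arterial-like level was 2.11-fold that of general capillary-like cells in control (1.61 to 2.71) and 2.47-fold in mutant (1.94 to 3.12). The arterial and venous intervals overlapped in each library, so these 2 were not told apart. Aerocyte-like cells, the gas-exchange capillary type found as a cluster in the mutant library, had 35.6 CPM. The 14 lymphatic-like cells held 1 Nos3 UMI, and shallow endothelial-like cells had 28.5 and 14.8 CPM. The order artery and vein above capillary was the same in both libraries, while the venous groups were small, with 42 and 41 cells.

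Nos3 differed by less than 2-fold between the libraries in each endothelial type compared. The log2 difference of mutant against control was -0.25 in all endothelial-like cells, -0.25 in general capillary-like cells, -0.07 in arterial-like cells and -0.40 in venous-like cells. Over all endothelial-like cells it equalled the median of the 200 genes nearest in intron length, which was also -0.25. Nos3 was near 0 in pericyte-like and smooth muscle-like cells. Pericyte-like cells held 1 UMI in each library, vessel smooth muscle-like cells 2 and 0, and airway smooth muscle-like cells 0 and 0. The 0 counts allow up to 5.0 CPM in mutant vessel cells and up to 4.02 and 4.44 CPM in the airway cells (3 counts of the total). Among control types of at least 50 cells, the highest level outside the endothelium was 13.6 CPM (5.46 to 28.0) in the 67 erythroid-like cells.

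**Figure D1:**
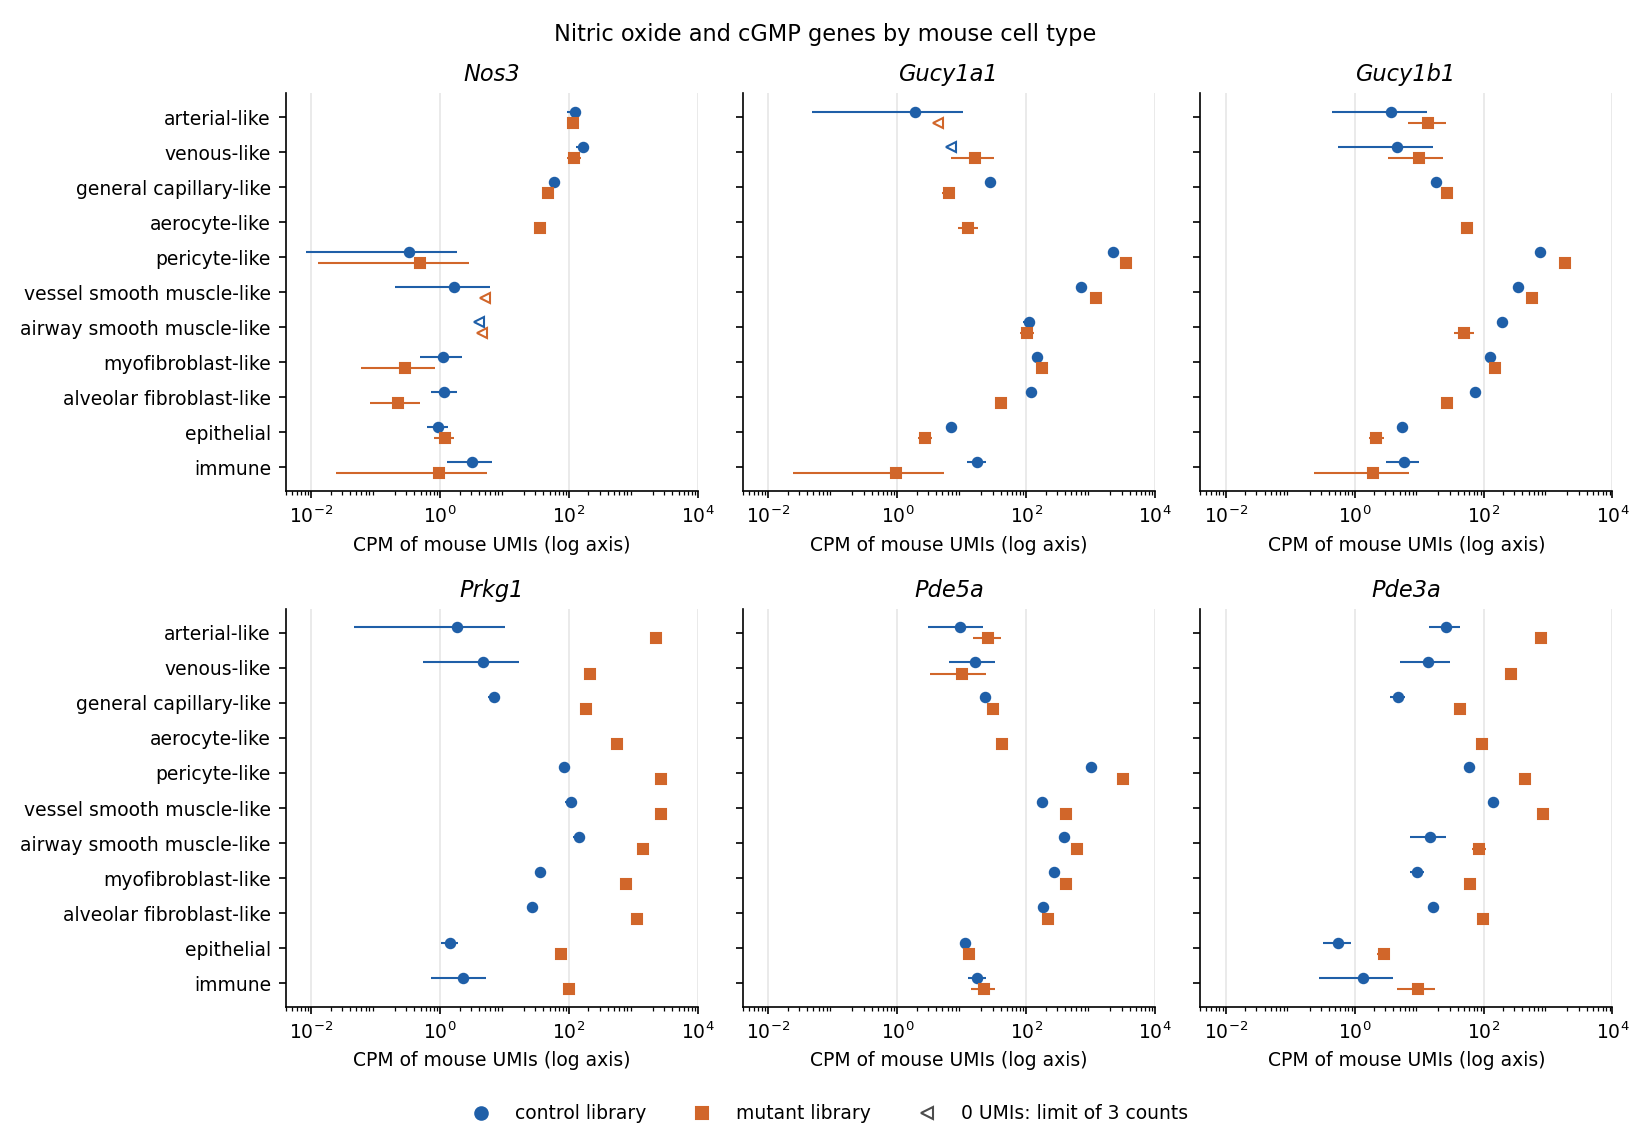
CPM of each of the 6 genes (log axis) in mouse cell types of the control library (blue circles) and the mutant library (orange squares); bars are 95% Poisson intervals and open triangles mark types with 0 UMIs at the limit that 3 counts allow. Nos3 sits at 35.6 to 162 CPM in the 4 endothelial types drawn and below 5 CPM in the other types drawn, while Gucy1a1, Gucy1b1 and Pde5a peak in pericyte-like cells in both libraries.

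The receptor genes had their highest level in pericyte-like cells. Gucy1a1, the alpha subunit, stood at 2214 CPM in control pericyte-like cells and 3508 CPM in mutant ones, and Gucy1b1, the beta subunit, at 754 and 1838 CPM. Next for both came vessel smooth muscle-like cells, with 705 and 1214 CPM of Gucy1a1 and 344 and 568 CPM of Gucy1b1. Which cells carry that name depends on the rule. Under the earlier naming rule 28 control cells were vessel smooth muscle-like and 445 pericyte-like, against 94 and 286 here. In mutant the numbers were 75 and 194, against 56 and 180. The intervals of pericyte-like and vessel smooth muscle-like cells did not overlap for either subunit in either library. Against all other mouse cells, pericyte-like cells had 29.2-fold more Gucy1a1 in control (28.2 to 30.2) and 59.0-fold more in mutant (56.9 to 61.1). For Gucy1b1 the ratios were 15.9-fold (15.1 to 16.7) and 43.0-fold (41.1 to 45.04). In mutant the 104 cells left unnamed came next, at 931 CPM of Gucy1a1 and 404 CPM of Gucy1b1. Myofibroblast-like cells had 145 and 178 CPM of Gucy1a1, epithelial cells 6.79 and 2.69 CPM, and arterial-like cells 1 UMI and 0.

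Both subunits, which the enzyme needs, were detected together in nearly every pericyte-like cell. The count was 276 of 286 control cells (96.5%, exact Clopper-Pearson interval 93.7% to 98.3%) and 177 of 180 mutant cells (98.3%, 95.2% to 99.7%). In epithelial cells, taken as background, both were detected in 3.21% and 0.379% of cells, although these cells were deeper or as deep, with median depths of 16791 and 11961 UMIs against 9717 and 11080 UMIs in pericyte-like cells. Thinned to 2000 UMIs, Gucy1a1 was still found in 95.4% of 282 control and 100% of 173 mutant pericyte-like cells, after leaving out 4 and 7 cells. Both subunits stood together in 88.3% and 83.9% of vessel smooth muscle-like cells, and in 44.1% and 30.5% of airway smooth muscle-like cells. The mouse genes are neighbours: on mm10 in the GENCODE vM21 annotation both lie on the minus strand of chromosome 3, Gucy1b1 at chr3:82032006-82074689 and Gucy1a1 at chr3:82092427-82145789, 17737 bp apart.

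Prkg1, the cGMP kinase gene at chr19:30564489-31765033, has 1190 kb of intron, so its cell types were compared within each library. In the control library it was low everywhere, with 105 CPM (88.04 to 125) in vessel smooth muscle-like cells, 141 CPM (115 to 170) in airway smooth muscle-like cells and 82.9 CPM (73.0 to 93.8) in pericyte-like cells. In the mutant library the same 3 types had 2670, 1410 and 2645 CPM. The ratio of vessel smooth muscle-like to pericyte-like cells was 1.27 in control (1.02 to 1.58) and 1.01 in mutant (0.954 to 1.07). Prkg1 RNA was thus at about the same level in these 2 types in mutant, and somewhat higher in vessel smooth muscle-like cells in control. Airway smooth muscle-like cells were 1.70-fold above pericyte-like cells in control (1.34 to 2.14) and 0.533 of them in mutant (0.497 to 0.571), so that this order differed between the libraries. Against all other mouse cells Prkg1 was 5.37-fold higher in control pericyte-like cells and 4.46-fold higher in mutant ones. Alveolar fibroblast-like cells had 26.2 and 1138 CPM and myofibroblast-like cells 35.0 and 765 CPM. Both were below the pericyte-like and smooth muscle-like types in each library, while mutant arterial-like cells, at 2197 CPM, stood above the airway cells.

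The 2 phosphodiesterase genes had different patterns in pericyte-like and smooth muscle-like cells. Pde5a, at chr3:122728947-122859374, was highest in pericyte-like cells, with 991 CPM (956 to 1027) in control and 3131 CPM (3054 to 3209) in mutant. The level in vessel smooth muscle-like cells was 0.176 of that in control (0.152 to 0.202) and 0.130 in mutant (0.114 to 0.148), or 174 and 407 CPM. Airway smooth muscle-like cells lay between, with 391 and 614 CPM. Fibroblast types carried Pde5a as well, with 271 and 412 CPM in myofibroblast-like cells and 184 and 214 CPM in alveolar fibroblast-like cells. Pde3a, at chr6:141249269-141507448, was instead higher in vessel smooth muscle-like cells, with 142 CPM (122 to 165) and 847 CPM (775 to 924). Pericyte-like cells had 59.1 CPM (50.8 to 68.5) and 447 CPM (418 to 477) of Pde3a. The vessel smooth muscle to pericyte ratio of Pde3a was 2.40 in control (1.94 to 2.97) and 1.90 in mutant (1.70 to 2.12). Airway smooth muscle-like cells had little Pde3a, 14.7 and 85.8 CPM. Vessel smooth muscle-like cells thus differed from pericyte-like cells in 1 direction for Gucy1a1, Gucy1b1 and Pde5a and in the other for Pde3a. After the added 10 CPM the Pde3a difference passed 2-fold in control alone, where 3.29% of 9196 genes were called higher in vessel smooth muscle-like cells and 2.19% lower, against 1 and 3 of the 5 genes compared. In the mutant library 5.95% of 9762 genes were called lower in vessel smooth muscle-like cells, with 3 of the 5, and 6.33% higher, with 0 of the 5. Pde3a there was 0.91 apart on the log2 scale, just under the limit of 1.

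Counted together, 5 of the 6 genes were called higher in control pericyte-like cells than in all other mouse cells, and Nos3 was called lower. Among all 9723 genes tested there, 4.11% were called higher and 8.08% lower. In the mutant library 5 of the 5 genes that reached 10 CPM were called higher, where 6.46% of 10237 genes were. In vessel smooth muscle-like cells 4 genes were called higher in each library (Gucy1a1, Gucy1b1, Prkg1 and Pde3a), against 4.36% of 9825 and 5.69% of 10515 genes. Airway smooth muscle-like cells had 3 in control (Gucy1b1, Prkg1 and Pde5a) and 2 in mutant (Prkg1 and Pde5a), against 8.48% and 6.49%. Gucy1a1 was below the level of all other cells there, at log2 differences of -0.39 and -0.36. With vessel and airway cells summed, 5 genes were called higher in each library, against 5.59% and 5.52%, so the summed smooth muscle value hides that Gucy1a1 was high in the vessel cells and not in the airway cells.

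Within a type, the genes differed in how much they varied between subclusters, each library having been clustered again on its own. Over the 6 control pericyte-like subclusters Gucy1a1 ranged from 1728 to 2613 CPM, Gucy1b1 from 595 to 931, Pde5a from 619 to 1269, Prkg1 from 68.5 to 110 and Pde3a from 44.0 to 79.9 CPM. Over the 10 mutant ones the ranges were 2651 to 4493, 1076 to 2252, 1781 to 3901, 1450 to 3244 and 322 to 641 CPM. Every mutant pericyte-like subcluster was above every control one for each of the 5 genes, though for Gucy1a1 the ranges nearly met (2613 and 2651 CPM). The subclusters are parts of 1 library each and not replicates, so they share any difference between the libraries. The vessel smooth muscle-like group held a subcluster closer to pericytes and 1 farther from them in each library. In control, the 66 cells with more of the pericyte channel gene Kcnj8 (131 CPM) had 876 CPM of Gucy1a1 and 225 CPM of Pde5a, and the 28 cells with 12.5 CPM of Kcnj8 had 348 and 67.6 CPM. In mutant, the 24 cells with 112 CPM of Kcnj8 had 1926 CPM of Gucy1a1 and 711 CPM of Pde5a, and the 22 cells with 17.3 CPM had 673 and 183 CPM. Prkg1 did not follow that split, with 103 and 110 CPM in control and 2584 and 3099 CPM in mutant. Pde3a stood at 143 and 140 CPM and at 869 and 942 CPM. A further 10 mutant vessel cells, shallower at a median of 4514 UMIs, had 639 CPM of Gucy1a1, 639 CPM of Prkg1 and 180 CPM of Pde3a. The naming rule used Kcnj8 but none of the 6 genes, although it was chosen with values of these genes by subcluster seen.

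**Figure D2:**
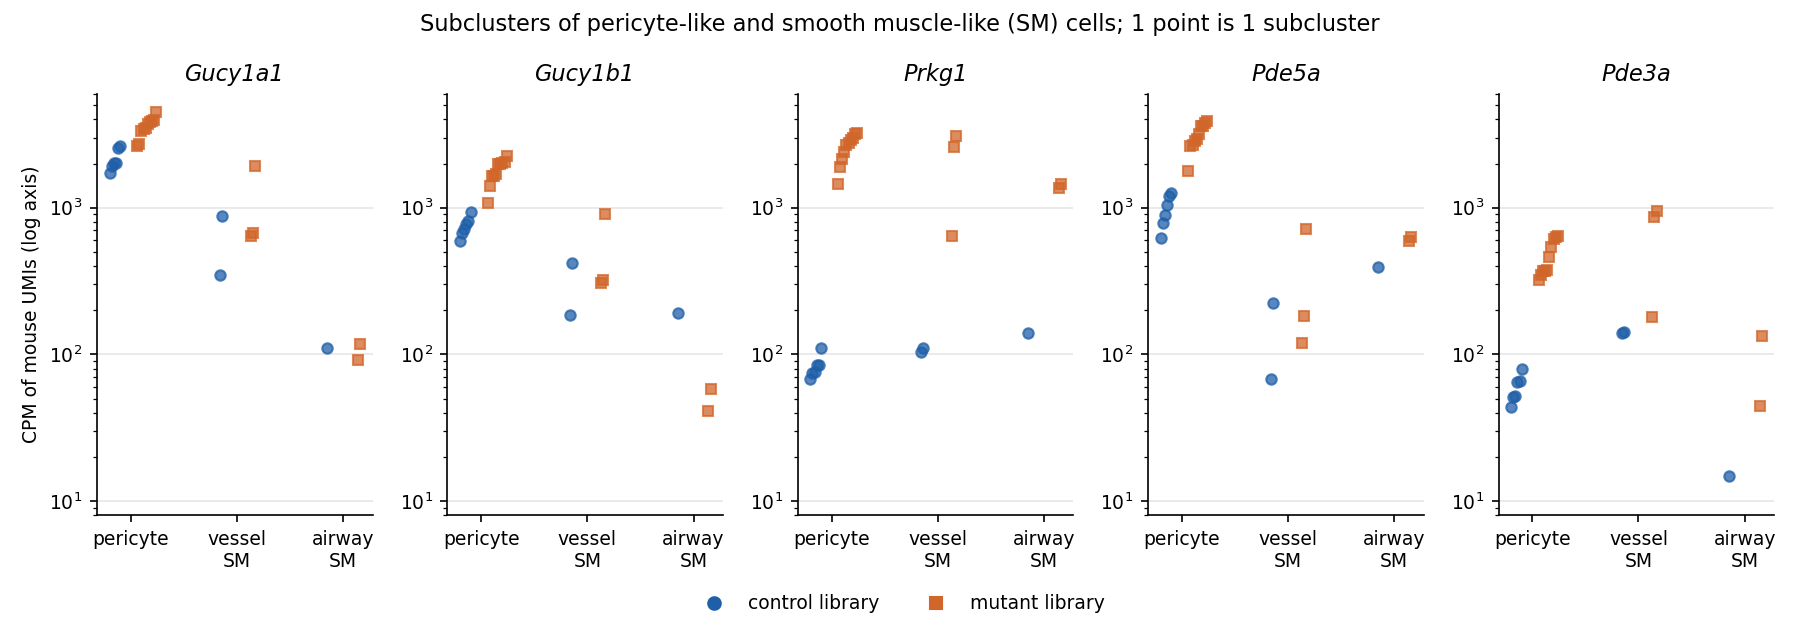
CPM (log axis) of the 5 response genes in each subcluster of pericyte-like, vessel smooth muscle-like and airway smooth muscle-like (SM) mouse cells, control (blue circles) and mutant (orange squares); 1 point is 1 subcluster. Gucy1a1, Gucy1b1 and Pde5a are lower in vessel smooth muscle than in pericyte subclusters, while Prkg1 and Pde3a are not in control, where Pde3a is 44.0 to 79.9 CPM in pericyte subclusters and 140 to 143 CPM in vessel ones.

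The mutant library had more of the response genes than the control library in pericyte-like cells. The log2 differences were 0.66 for Gucy1a1, 1.27 for Gucy1b1, 4.84 for Prkg1, 1.65 for Pde5a and 2.72 for Pde3a. Of these 5, 4 were called apart, all higher in mutant, and among all 9364 genes 15.2% were called apart. Across all genes, however, the median difference was greater in the ranges of longest intron. The median log2 difference in pericyte-like cells was -0.36 for genes with under 1 kb of intron and 1.38 for genes with 300 kb or more. The 2 matrices came from different Cell Ranger releases, 6.0.1 and 7.0.1, and the intron setting of either is not given in the sources used here, so host, library and counting cannot be told apart. Gucy1b1 has 38.8 kb of intron, Gucy1a1 46.4 kb, Pde5a 121 kb and Pde3a 245 kb.

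Each gene was therefore also set against the 200 genes nearest to it in intron length. In pericyte-like cells the difference beyond those genes was 0.52 for Gucy1a1, 1.16 for Gucy1b1, 3.44 for Prkg1, 1.12 for Pde5a and 1.63 for Pde3a. The same 4 genes were at least 2-fold apart on this scale, where 9.84% of genes were. Few genes have as much intron as Prkg1, so its comparison set had shorter introns than its own. Other markers differed beside these genes: the 13 listed pericyte genes summed to 6599.5 CPM in control and 10700.2 CPM in mutant pericyte-like cells, and the 10 smooth muscle markers to 1958 and 2579.6 CPM. Their part in the result was not tested. In vessel smooth muscle-like cells the 5 log2 differences were 0.77, 0.71, 4.54, 1.18 and 2.50 in the same order, and 0.61, 0.70, 2.92, 0.61 and 1.48 beyond the genes nearest in intron length. Against 18.3% of 9913 genes, 3 were called apart there (Prkg1, Pde5a and Pde3a), and against 12.8% on the relative scale 2 were (Prkg1 and Pde3a).

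In airway smooth muscle-like cells the subunits of the receptor differed in another way. Gucy1a1 stood at 110 CPM in control and 104 CPM in mutant, with overlapping intervals. Gucy1b1 was lower in mutant, 50.3 CPM (34.8 to 70.3) against 192 CPM (161 to 226), a log2 difference of -1.74. Prkg1 and Pde3a were higher in mutant by 3.24 and 1.95, and by 1.53 and 1.01 beyond genes of like intron length. The 3 genes called apart compare with 17.9% of 9985 genes. The control cells also had more of the 10 smooth muscle markers (33106 against 15097 CPM) and of the 6 cardiac muscle markers (880 against 366 CPM), whose part in the result was not tested. With 34 and 59 cells from different clusters, this comparison rests on few cells. With vessel and airway cells summed, 2 of 5 genes were called apart between the libraries (Prkg1 and Pde3a), against 15.6% of 10083 genes, and the same 2 on the relative scale, against 9.52%.

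**Figure D3:**
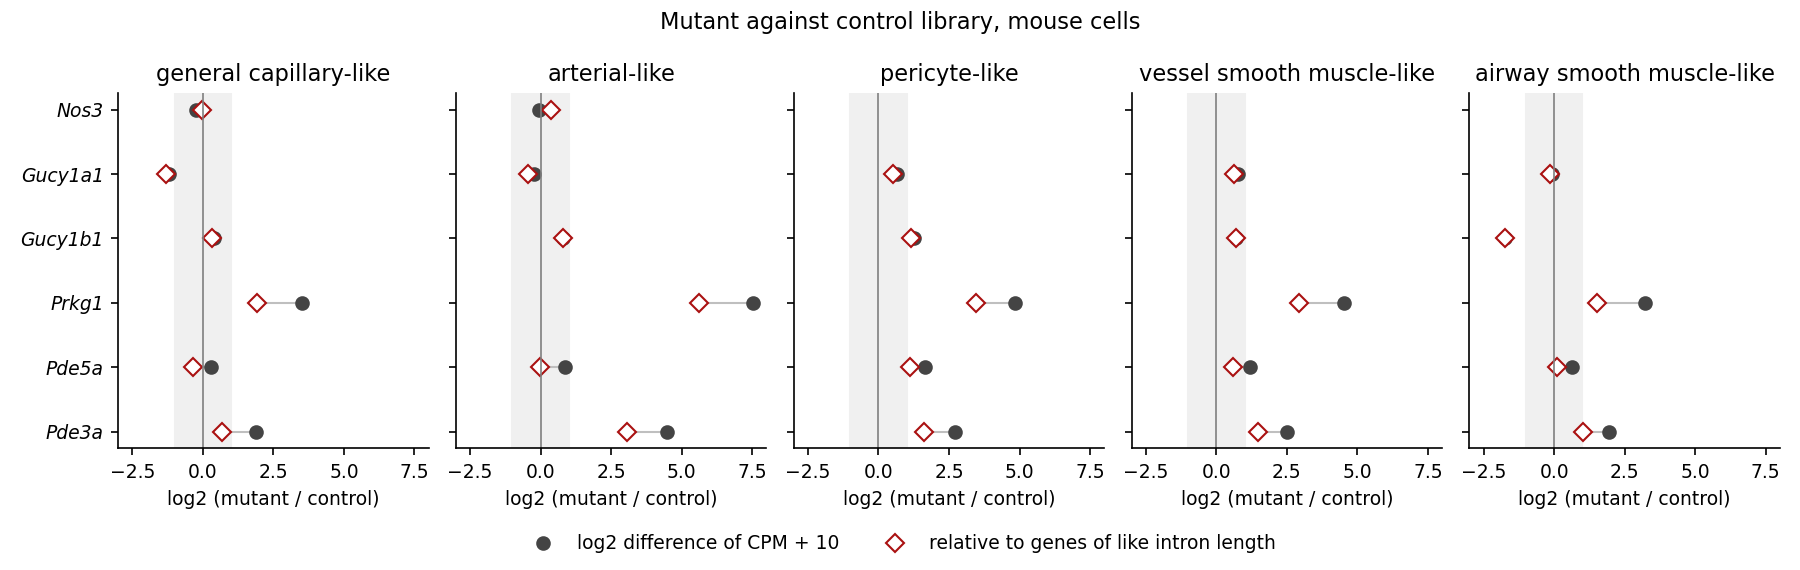
Log2 ratio of mutant to control in 5 mouse cell types, from CPM plus 10 (filled circles) and relative to the 200 genes nearest in intron length (open diamonds); the grey band marks less than 2-fold. Prkg1 and Pde3a lie furthest to the right in each type, and Nos3, drawn for the endothelial types, lies within the band.

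**Figure D4:**
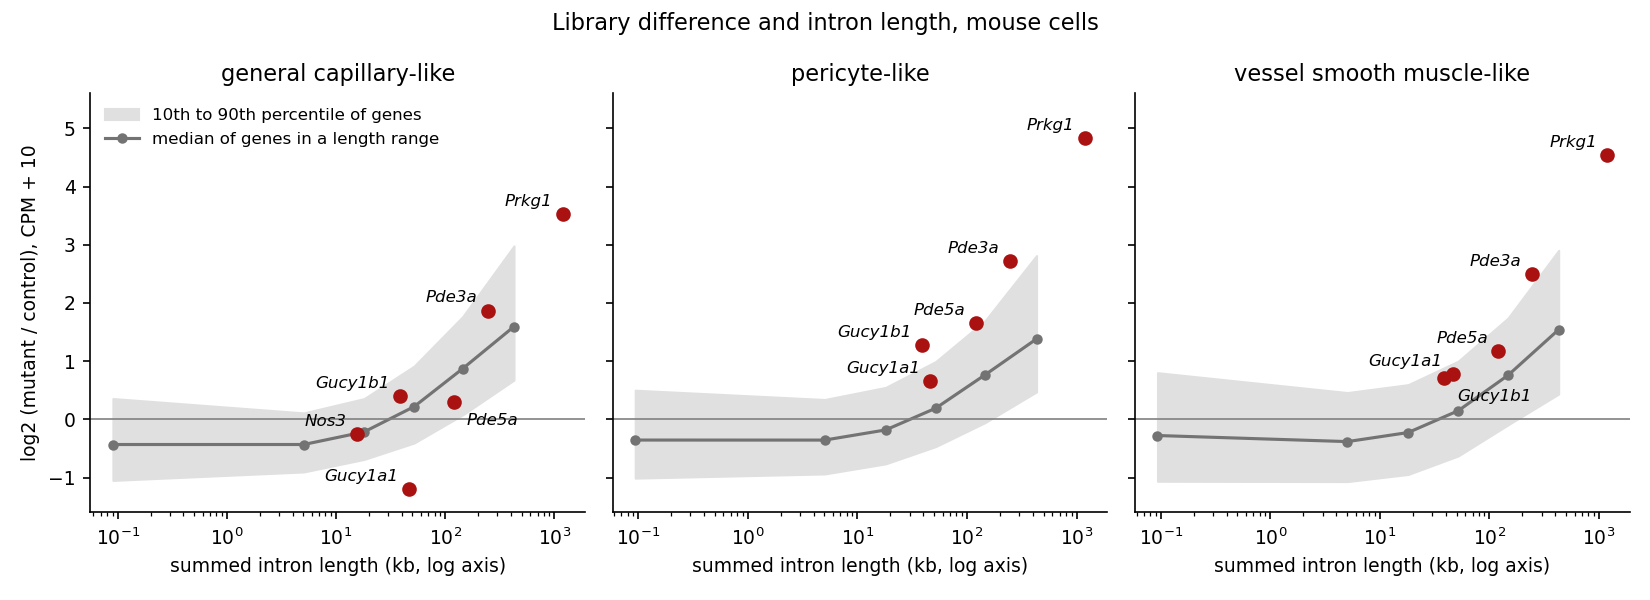
Log2 ratio of mutant to control against summed intron length (log axis) in 3 mouse cell types: grey line and band are the median and the 10th to 90th percentile of all genes in 6 length ranges, red points are the named genes. In pericyte-like cells the medians run from -0.36 in the shortest range to 1.38 in the longest, and all 5 response genes lie above the median, Prkg1 at 4.84.

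Endothelial-like cells carried some of the response genes too. In mutant general capillary-like cells Gucy1b1 was at 26.9 CPM and Gucy1a1 at 6.26 CPM, and in control at 18.0 and 27.2 CPM. Most control Gucy1a1 UMIs there lay in few cells. Of 795 control general capillary-like cells, 17 had 5 or more Gucy1a1 UMIs and held 76.0% of the 350 UMIs. Those 17 cells had a median of 97938 UMIs, against 7045 in the 715 cells without a Gucy1a1 UMI, and their pericyte markers summed to 914 CPM against 251 CPM. No mutant general capillary-like cell had 5 or more. The log2 difference of mutant against control was -1.20 with these 17 cells and -0.10 without them. This split was made on Gucy1a1 itself after its values were seen. It removed control cells alone, so a move of the Gucy1a1 difference upward was fixed in advance. Without the same cells Gucy1b1 stood at 0.89 and Pde5a at 0.76. Over all endothelial-like cells the Gucy1a1 difference was -1.02, and 3 of the 6 genes were called apart (Gucy1a1 lower, Prkg1 and Pde3a higher), against 14.5% of 9437 genes. The same 3 were called on the relative scale, against 6.94%. The highest doublet score among the 17 cells was 0.180, under the removal limit of 0.2, and the part of doublets in this result was not tested.

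Arterial-like cells stood apart from the other endothelium in the mutant library. They held 1570 Prkg1 UMIs, a level of 2197 CPM (2090 to 2308), and 566 Pde3a UMIs, a level of 792 CPM (728 to 860). In that library Prkg1 was 11.9-fold higher in arterial-like than in general capillary-like cells (11.1 to 12.7) and Pde3a 18.2-fold higher (16.1 to 20.53). A Prkg1 UMI was found in 65 of 83 mutant arterial-like cells (78.3%), and in 66.2% after thinning, which left out 9 cells. Mutant epithelial cells, with a median of 11961 UMIs, had one in 34.8%, and in 13.0% after thinning. In the control library the 64 arterial-like cells held 1 Prkg1 UMI, 1.85 CPM (0.0468 to 10.3), a ratio to general capillary-like cells of 0.267 (0.00669 to 1.53). Pde3a was above the capillary level in control as well, 25.9 against 4.67 CPM, a ratio of 5.55 (2.86 to 10.0). The arterial enrichment of Pde3a was thus seen in both libraries and that of Prkg1 in mutant alone. The control group was shallower, with a median of 4274 UMIs against 7448.

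Mural markers were read in the same arterial-like cells. Myh11 stood at 5.55 and 2.80 CPM (control and mutant), Acta2 at 31.5 and 8.40 CPM and Pdgfrb at 0, and the 10 smooth muscle markers summed to 109 and 54.6 CPM with 4 of them at 0 in each library. The 13 pericyte markers summed to 211 and 168 CPM, also with 4 at 0 in each. The 6 markers listed for vessel smooth muscle were Notch3, Gja4, Heyl, Cspg4, Mcam and Ntf3. They summed to 1830 and 1020 CPM, against 1568 and 1497 CPM in vessel smooth muscle-like cells. Only 2 of the 6 reached 10 CPM in arterial-like cells of each library, and Cspg4 stood at 0. Gja4 is also on the arterial list used to name these cells. Notch3 stood at 3.70 and 2.80 CPM, against 413 and 618 CPM in vessel smooth muscle-like cells. The part of these lists in the result was not tested. Gucy1a1, abundant in mural cells, had 1 UMI in control and 0 in mutant. Haemoglobin and other erythroid markers differed, with 16795 CPM in control and 146 CPM in mutant, and their part in the result was not tested. Between the libraries the log2 difference was 7.54 for Prkg1 and 4.48 for Pde3a, and 5.63 and 3.05 beyond genes of like intron length. The Prkg1 ratio rests on 1 control UMI, so that the lower end of its interval was 213-fold. These 2 of 5 genes compare with 27.5% of 9443 genes called apart, and with 14.1% on the relative scale. Venous-like cells of the mutant library had 210 CPM of Prkg1 and 262 CPM of Pde3a, and aerocyte-like cells 548 and 96.0 CPM.

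Alveolar fibroblast-like cells came from different clusters in the 2 libraries, 1789 of the 1790 control cells from m3 and 1113 and 974 of the 2145 mutant cells from m20 and m29. Alveolar fibroblast-like cells had less of both receptor subunits in mutant: Gucy1a1 40.1 against 120 CPM (a log2 difference of -1.37) and Gucy1b1 27.0 against 74.5 CPM (-1.19), the opposite direction from pericyte-like cells. Both were called lower, as were 7.54% of 9380 genes, and beyond genes of like intron length they stood at -1.44 and -1.17, where 11.7% of genes were at least 2-fold apart. Less Gucy1a1 in mutant was not particular to this type. Shallow mesenchymal-like cells had 48.4 against 124 CPM, epithelial cells 2.69 against 6.79 CPM and immune cells 0.951 against 17.0 CPM. Myofibroblast-like cells had more, 178 against 145 CPM. Prkg1 was higher in mutant in each of the 10 mouse types compared, with log2 differences from 2.90 in epithelial cells to 7.54 in arterial-like cells. In epithelial cells, where 12.4% of genes were called higher, it was 1.34 beyond genes of like intron length, where 15.9% were at least 2-fold apart. Those cells also came from different clusters, with 718 of 872 control cells in m7 and 1040 and 643 of 2112 mutant cells in m27 and m28.

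Rat cells allowed the same genes to be read in host tissue. In the control library 12 rat endothelial-like cells held 12 Nos3 UMIs, or 98.4 CPM (50.9 to 172), while all 725 rat cells together held 37, or 3.14 CPM. The mutant library had 0 rat endothelial-like cells and 1 Nos3 UMI in its rat cells. Rat pericyte-like cells numbered 86 in control (cluster r2) and 63 in mutant (62 of them in r12). Both receptor subunits were detected together in 77 of 86 (89.5%) and in 63 of 63 of them, against 0.851% of 235 control rat epithelial cells. Receptor RNA was thus found in pericyte-like cells of both species.

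Rat levels in pericyte-like cells were mostly below mouse levels of the same library. Gucy1a1 stood at 774 CPM in rat and 2214 CPM in mouse in control, a ratio of 0.350 (0.322 to 0.379), and at 2351 and 3508 CPM in mutant, a ratio of 0.670 (0.634 to 0.708). Pde5a stood at 343 and 991 CPM in control, a ratio of 0.346 (0.306 to 0.390), and at 2386 and 3131 CPM in mutant, a ratio of 0.762 (0.721 to 0.805). Gucy1b1 differed less in control, with 608 CPM in rat and a ratio of 0.806, and had 1090 CPM and a ratio of 0.593 in mutant. Pde3a was the exception, higher in rat at 104 and 578 CPM, ratios of 1.75 (1.34 to 2.27) and 1.29 (1.15 to 1.46). In control 2 of 4 genes were called apart (Gucy1a1 and Pde5a), where 25.3% of genes were, and in mutant 0 of 4, where 25.6% were. The rat and mouse gene models differ, so part of a ratio may lie in the annotation, and this was not tested. Rat levels here come from rat barcodes alone, with mixed barcodes left out. In control, rat barcodes held 778 of 3312 rat Gucy1a1 UMIs and mixed ones 2323. In mutant the numbers were 1560 of 2383 and 767. With species limits of 95% and 5%, rat pericyte-like cells numbered 14 in control and 3 in mutant.

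The rat pericyte-like cells of the mutant library had more of these genes than those of the control library. The log2 differences were 1.59 for Gucy1a1, 0.83 for Gucy1b1, 2.76 for Pde5a and 2.37 for Pde3a. Of the 4, 3 were called higher, against 15.9% of all 8729 genes. The direction was that of the mouse pericyte-like cells for the 4 genes, in libraries that also differ in counting. The rat control cells had more smooth muscle RNA (5443 against 3687 CPM over 10 markers) and less pericyte RNA (6624 against 10512 CPM over 13 markers), and the part of these in the result was not tested.

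Rat smooth muscle-like cells, 66 in the control library, were of the airway kind, with Hhip at 393 CPM and Notch3 at 0. They had 38.1 CPM of Gucy1a1, 57.2 of Gucy1b1, 36.4 of Pde5a and 6.93 of Pde3a. All 4 were called lower than in the 128 mouse smooth muscle-like cells of that library, where 18.9% of 9002 genes were called lower. The mouse group held 94 vessel cells, which had the higher Gucy1a1. Against the 34 mouse airway cells alone, at 110, 192 and 391 CPM, rat Gucy1a1, Gucy1b1 and Pde5a were lower as well. For Pde3a the intervals overlapped, at 1.89 to 17.7 CPM from 4 rat UMIs and 7.36 to 26.4 CPM from 11 mouse UMIs.

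**Figure D5:**
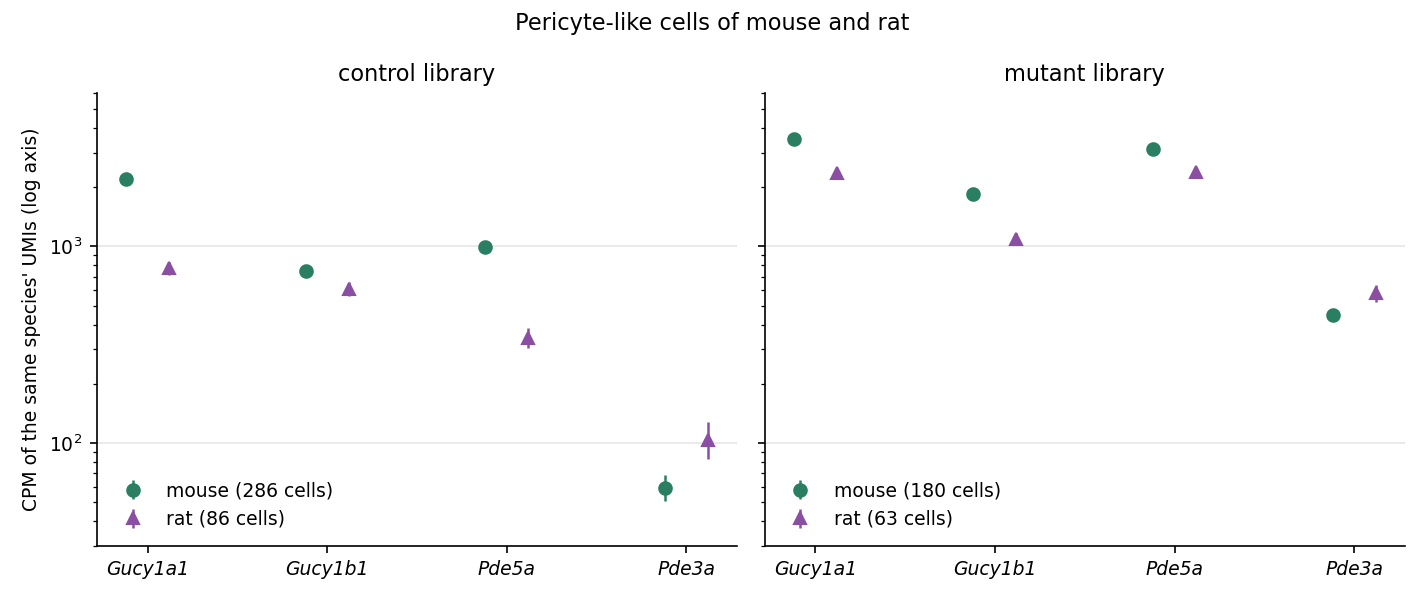
CPM (log axis, each scaled to UMIs of its own species) of 4 genes in mouse (green circles) and rat (purple triangles) pericyte-like cells of each library, with 95% Poisson intervals. Rat levels are below mouse levels for Gucy1a1, Gucy1b1 and Pde5a and above for Pde3a in both libraries.

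Other genes of the pathway were taken from a list of 55, in groups by role. Of 14 measured genes of nitric oxide synthesis and its control, 6 were called higher in control endothelial-like cells and 0 lower, and 7 higher and 1 lower in mutant. Cav1, whose caveolin product binds and restrains the synthase, had 1101 and 1064 CPM there. Nostrin, a trafficking partner of the synthase, had 116 and 277 CPM, Klf2, a flow-sensitive activator of Nos3, had 632 CPM in control, and Nos2, the inducible synthase, had 19.3 and 41.4 CPM. Npr1, the natriuretic peptide receptor that makes cGMP without nitric oxide, stood at 124 and 118 CPM against 5.12 and 8.83 CPM elsewhere. Over the whole list 9 of 29 measured genes were called higher and 2 lower in control, and 12 of 40 each way in mutant, beside the shares of all genes given above. The list median was 0.43 and 0.24, beside 0.00 and 0.07 for all genes.

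In pericyte-like cells 8 of 31 measured pathway genes were called higher and 6 lower in control, beside 4.11% and 8.08% of all genes. In mutant 10 of 39 were called higher and 13 lower, beside 6.46% and 12.7% of all genes. Gucy1a2, the other alpha subunit of the receptor, stood at 54.8 and 564 CPM, 13.8-fold (11.4 to 16.7) and 30.8-fold (28.5 to 33.2) above all other cells. Nostrin was also high here, at 210 and 747 CPM. Vasp, an actin regulator that the kinase phosphorylates, stood at 279 and 333 CPM, and Pde4a, a cAMP phosphodiesterase, at 45.6 and 43.1 CPM. Cav1 was lower than elsewhere, at 53.2 and 45.6 CPM, in contrast to endothelium. The list medians were 0.16 and -0.26, beside -0.03 and 0.01 for all genes.

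In smooth muscle-like cells, vessel and airway together, 6 of 8 measured targets of the kinase were called higher in control and 3 of 8 in mutant, beside 5.59% and 5.52% of all genes. Mrvi1, which carries the kinase's brake on calcium release, had 58.1 and 122 CPM, and Kcnma1, the pore of a calcium-activated potassium channel, 36.4 and 222 CPM. Kcnmb1, its beta subunit, had 14.6 CPM in control, and Rgs2, which damps contractile receptor signals, 490 CPM. Over the list 11 of 34 genes were called higher and 3 lower in control, and 8 of 41 higher and 10 lower in mutant, with 5.65% and 9.16% of all genes lower. In airway smooth muscle-like cells alone 7 of 8 targets in control and 8 of 9 in mutant were called higher, beside 8.48% and 6.49% of all genes. In vessel cells alone 2 of 5 and 2 of 6 were, beside 4.36% and 5.69%.

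Between the libraries, 9 of 30 measured pathway genes were called higher in mutant pericyte-like cells and 0 lower, with a list median of 0.48 beside -0.05 for all genes. Of all genes 10.6% were called higher and 4.63% lower. Gucy1a2 differed by 3.15, and by 1.84 beyond genes of like intron length. In rat pericyte-like cells Gucy1a2 stood at 47.1 CPM in control and 575 CPM in mutant. Klf2 differed by 2.07, and by 2.52 relative to such genes, and Nostrin by 1.78 and 1.60. Pde4b, Itpr1, Pde1a and Pde4d differed by 1.33 to 1.96 and by less than 2-fold on the relative scale. In endothelial-like cells 8 of 32 were called higher and 1 lower, Rgs2 at -1.64, against 10.6% and 3.9% of all genes. Pde4d was the largest there, at 4.60, or 2.92 beyond genes of like intron length.

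Across the 10 mouse cell types with at least 50 cells in both libraries, the genes closest to each member by level were as follows, among 5122 candidates. The 10 points share a library and the types are not independent, so these values describe only. Gucy1a1 and Gucy1b1 had each other as nearest gene, with Pearson r of log2 levels of 0.987 in control and 0.977 in mutant, followed by the muscle filament gene Des and by Pcdh18 for Gucy1a1 and by Ehd3 and Pcdh18 for Gucy1b1. Pde5a was nearest to Des (0.974 and 0.960), and both receptor genes were among its 5 nearest. Nos3 was nearest to the endothelial phosphatase gene Ptprb (0.985 and 0.979), then Fgd5, Jag2, Notch4 and Dll4. Prkg1 was nearest to Ptpn9 (0.939 and 0.905) and Pde3a to Afap1l2 (0.954 and 0.916), ranked by the lower of the 2 values. In control alone Prkg1 had a higher r with Gucy1b1 (0.973) and Gucy1a1 (0.963), while in mutant these were 0.696 and 0.647.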

How the data were processed

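Per the labels, dissociated lung cells were profiled with the 10x 3' v3 protocol. The authors deposited raw UMI counts for each feature and barcode. The matrices came from Cell Ranger 6.0.1 (control) and 7.0.1 (mutant), per the file headers, and mm10, rn6 and Seurat 4.3 are named per the submitters' processing notes.

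Barcodes with at least 500 genes and at most 20% mitochondrial UMIs were kept. Mouse barcodes had at least 90% mouse UMIs and rat barcodes at most 10%. Scanpy 1.11.5 Scrublet scores of 0.2 or more were removed (154 control and 356 mutant mouse cells). Each species was clustered on its own, over both libraries (Leiden, resolution 1, seed 1). Mouse cells of clusters named pericyte, smooth muscle or cardiac muscle were clustered again in each library at resolution 3. These subclusters were named by Myl7, Pdgfra, Hhip, Notch3, Myh11, Acta2, Kcnj8 and Pdgfrb. Rat cells were not clustered again. A subcluster was left unnamed where its 10 leading genes held at least 2 markers of other types, and more of them than of its own.

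The genes, lists and markers were chosen with earlier results of these data known. The naming rules were chosen while the clusters were built, over several versions, with values of the 6 genes by subcluster seen in between, and an earlier rule was kept as an alternative. All 6 genes are named in every comparison, and of the other pathway genes those with 20 UMIs in the higher group and at least 2-fold apart, at most 10 per comparison. For likeness, the 5 genes of highest Pearson r were named, taking the lower of both libraries, among genes with 50 CPM in a type of each library.

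A gene entered a comparison at 10 CPM in either group. With 1 library per group no p-value was computed, and intervals (exact Poisson for counts and ratios, Clopper-Pearson for shares) hold counting error only. Intron lengths came from GENCODE vM21 for 99.5% of 55293 mouse symbols. Scripts were tested on simulated counts with known folds. Alternatives were other limits for barcodes, doublets and species, other clustering, pseudocounts and scalings.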

Additional observations from a re-analysis of the deposited data

Results flagged for a closer look

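Barcodes that mixed both species were left out of every comparison, and rat UMIs of these genes stood in them. The 882 mixed control barcodes held 24 rat UMIs of Nos3, 2323 of Gucy1a1, 1614 of Gucy1b1, 1067 of Pde5a and 228 of Pde3a. For Gucy1a1 that was 401 CPM of their rat UMIs, against 65.9 CPM in the 725 rat barcodes, and for Pde5a 184 against 42.1 CPM. The 57 mixed mutant barcodes held 767 rat UMIs of Gucy1a1, 415 of Gucy1b1, 882 of Pde5a and 160 of Pde3a. There the mixed and rat barcodes were close, at 1883 and 1882 CPM of Gucy1a1. These counts are above the limit that 0 counts allow, and no cell type was assigned to a mixed barcode.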

How the results depend on the processing

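Of 69 differences of the 6 genes, with 748 values under alternatives, 45 were at least 2-fold, and 3 of these 45 changed sign. With airway smooth muscle-like cells alone in place of all smooth muscle, Gucy1a1 stood at -0.39 in control and -0.36 in mutant, and Gucy1b1 at -0.62 in mutant, against all other mouse cells. Smaller differences of mutant against control changed sign too. In smooth muscle, Gucy1b1 was 0.04, and -1.74 with airway cells alone, and Gucy1a1 was 0.37, and -0.25 in cells with at least 1000 genes. In endothelial-like cells Pde5a was 0.34, and -0.39 beyond genes of like intron length. Of the 45, 31 were at least 2-fold the same way under every alternative run, and 42 had the same sign. The count called higher in both libraries was 1 for endothelial-like cells and 0 with 50 CPM added. For smooth muscle-like cells it was 5, 3 at clustering resolution 2 and 2 with airway cells alone. Between the libraries the smooth muscle count was 2, 4 with at most 10% mitochondrial UMIs, and 5 with no doublet removal and at resolution 0.5. The mix of vessel and airway cells differed between these settings. In mutant it was 56 and 59 in the main run, then 85 and 22, 85 and 31, and 75 and 0, in that order. In control it was 94 and 34, then 61 and 50, 76 and 37, and 117 and 30. The cause of these changes in count was not tested. The pericyte-like counts, 5 called higher in both libraries and 4 apart between them, were within 1.5 times of these under every alternative. With species limits of 95% and 5%, rat and mouse cells could not be compared for pericytes or smooth muscle, for fewer than 50 rat cells. With each library clustered alone, the pericyte comparison was missing for the same reason in the mutant library only. Pericyte-like cells numbered 218 to 445 in control and 149 to 215 in mutant across clusterings, vessel smooth muscle-like cells 28 to 117 and 49 to 85, and airway cells 28 to 50 and 0 to 59. With species limits of 95% and 5%, and at resolution 0.5, there were 0 mutant airway cells, so the airway Gucy1b1 difference has no value there. The naming rule, and the vessel, airway and capillary cells taken alone, were alternatives chosen after seeing the data. No paired analysis was possible because each group was 1 library. Groups under 100 cells limit what is detectable, as in the arterial-like cells and rat cells.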
